A study of Mus musculus with 12 samples.

Results

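The ETS genes described here are 8 transcription factor genes of the T lineage, Ets1, Ets2, Elf1, Elf4, Fli1, Gabpa, Etv6 and Elk3, taken by symbol from 49997 genes in each of 2 deposited count tables. All 8 were found in both tables, and all 8 passed the low-count filter in every comparison. ETS factors share a DNA-binding domain that recognises a short site built around the letters GGAA, and they differ in their partners and in whether they activate or repress. In developing T cells they bind the enhancers and promoters of antigen receptor chains, co-receptors and cytokine receptors, often beside RUNX proteins. Several of them are switched on or modified by the RAS-ERK kinase pathway, which runs downstream of the T cell receptor.

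Poly(A) RNA was measured in sorted mouse thymocytes of 2 stages, with 3 libraries in each of 4 groups. DP thymocytes express CD4 together with CD8, and CD4 thymocytes are later cells with CD4 alone. At each stage the cells came from a WT thymus (DP WT and CD4 WT) or from a thymus with an induced knockout of Satb1 (DP KO and CD4 KO), the gene of a nuclear protein that organises chromatin in T cells. All 12 libraries, the WT ones included, are labelled as treated with tamoxifen, the drug that induces the knockout, and the batch number in the labels equals the replicate number. The sources used here do not give the strain, the age, the Cre line, the deleted exons or the gates used for sorting. Whether a group's libraries stand for different mice is not stated in the labels, and p-values then reflect only how much these libraries vary, which may be technical in part.

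The smallest library, DP WT replicate 3, had a total count of 22790504 and the largest 62422640, and 3 counts, taken as the limit of detection, were worth 0.0465 to 0.134 CPM (counts scaled to a common library total); this covers counting error only. Satb1 counts were lower in KO than in WT at both stages, with log2 fold changes of -0.56 ± 0.08 in DP (SE, n = 3 against 3, edgeR adjusted p = 0.000299) and -1.12 ± 0.08 in CD4 (adjusted p = 4.02e-06). All 5 listed DP markers (Cd8a, Cd8b1, Rag1, Rag2, Ptcra) were detected in every library, and their summed level was 8384 to 9087 CPM in DP WT, 4150 to 4408 in DP KO, 298.3 to 524.4 in CD4 WT and 1088 to 1364 in CD4 KO. The sum of the 4 listed CD4 stage markers (Cd4, Zbtb7b, Ccr7, Cd40lg) was 1778 to 2035 CPM in CD4 WT and 691.6 to 788.2 in CD4 KO. In DP WT it was 1387 to 1496 CPM and in DP KO 983.5 to 1023. Most of this sum was Cd4, which averaged 1428 CPM in DP WT and 1111 CPM in CD4 WT. Listed markers of B cells, myeloid cells and stroma or epithelium each summed to at most 42.1 CPM in any library, while the erythroid and megakaryocyte list reached 183.7 CPM and the endothelial list ran from 140.6 to 211.6 CPM, most of it Pecam1. DP WT replicates 1 and 2 held 0.845 and 0.273 CPM of Xist, the transcript of the inactive X chromosome, against 189.7 to 601.4 CPM in the other 10 libraries. Ddx3y, the listed transcript of the Y chromosome, was at 40.36 to 127.2 CPM in every library, those with Xist included. Because of the Xist difference, results on DP WT are also given with replicate 3 as its lone library where the call changes.

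The 8 genes lie on 6 chromosomes of mm10, the build the submitters' processing notes name. Ets1 (chromosome 9, 32636241 to 32757820, plus strand) and Fli1 (chromosome 9, 32422204 to 32543432, minus strand) are neighbours that point away from each other across a gap of 92.8 kb. Ets2 (chromosome 16, 95702407 to 95721049, plus strand) and Gabpa (chromosome 16, 84834891 to 84863783, plus strand) share another chromosome. Elf1 lies on chromosome 14 (79481174 to 79582491, plus strand), Elf4 on chromosome X (48411049 to 48463132, minus strand), Etv6 on chromosome 6 (134035700 to 134270158, plus strand) and Elk3 on chromosome 10 (93247415 to 93311159, minus strand). Values in CPM are counts per gene, with reads over all its exons. The counts of Ets2 and Gabpa are uncertain, and that of Elf1 to a lesser degree. The table also counts Ets2 on an alternative copy of its locus, and 1321 exon bases of Gabpa overlap those of Atp5j on the opposite strand, whose reads cannot be told apart because the sources used here give no strand setting. Elf1 shares 95 exon bases with Wbp4 on the opposite strand and 167 with Gm9243 on its own.

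RefSeq promoter entries on GRCm38.p6 were matched by symbol for 6 of the 8 genes; Ets1 and Fli1 are not among them. The letters CCGGAAG, a strong form of the ETS site, were searched on both strands of the 250 bases before the start in 8 entries, since Elf1 and Elf4 have more than 1 start. One entry held a match, that of Gabpa, and 6.91% of all 32851 promoter windows of that length held one. The RUNX letters TGTGGT were in none of the 8 and in 14.0% of all windows. A match is a description of the letters, not of binding. The Gabpa stretch is shown because its gene carries the site that its own protein recognises; the capitals mark the match, read on the minus strand, starting at -93 from the RefSeq start; the whole window lies within exons of the GENCODE vM21 annotation, and the site lies inside the gene as counted, which starts further upstream (chr16:84835021-84835047, plus strand).
Gabpa: agggtaagtgCTTCCGGgtccctcagc
The windows of Etv6 (chr6:134035450-134035699, plus strand) and Elk3 (chr10:93311160-93311409, minus strand) are shown because both genes were called higher in DP KO and at the CD4 stage of WT. In DP KO the Etv6 call was lost under several alternatives, as given below. Neither window has a match to capitalise.
Etv6: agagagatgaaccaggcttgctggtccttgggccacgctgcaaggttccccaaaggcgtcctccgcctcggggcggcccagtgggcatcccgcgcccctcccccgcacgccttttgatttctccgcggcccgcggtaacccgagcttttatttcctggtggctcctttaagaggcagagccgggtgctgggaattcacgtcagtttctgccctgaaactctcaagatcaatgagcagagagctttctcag
Elk3: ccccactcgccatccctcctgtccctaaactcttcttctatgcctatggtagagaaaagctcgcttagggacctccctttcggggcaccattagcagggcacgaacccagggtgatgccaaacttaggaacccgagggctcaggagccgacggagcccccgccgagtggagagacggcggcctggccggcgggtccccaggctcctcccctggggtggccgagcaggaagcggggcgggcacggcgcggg
G and C made up 60.4% of the Etv6 window and 67.2% of the Elk3 window, against a median of 52.4% over all promoter windows.

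Ets1 was the most abundant ETS gene per length in every group. In DP WT its level was 307.2 ± 38.0 RPKM (CPM per kilobase of exon, SD, n = 3), that of Ets2 was 223.0 ± 7.05, and Elf1 came next with 97.22 ± 4.87. Among the 8 genes, Elf4 (30.07 ± 1.60), Gabpa (24.61 ± 2.10), Fli1 (23.32 ± 1.07), Elk3 (13.59 ± 0.579) and Etv6 (6.638 ± 0.288) followed. Neighbours in this order did not overlap between libraries except Gabpa and Fli1. Over a list of 26 ETS family genes the summed level was 783.5 ± 52.2 RPKM in DP WT, and the 8 genes made up 92.6 ± 0.260% of it. In DP KO the sum was 617.7 ± 4.54 RPKM, with 90.1 ± 0.304% from the 8 genes. In CD4 cells the sum was 802.7 ± 35.6 RPKM in WT and 617.9 ± 8.02 in KO, so the KO libraries of both stages were below all WT libraries (612.7 to 627.1 against 743.5 to 842.5 RPKM). These sums were not tested.

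The makeup of that sum shifted most in Ets1 and Ets2. Ets2 was 28.5 ± 1.01% of the family level in DP WT, 9.53 ± 0.408% in DP KO, 5.56 ± 0.378% in CD4 WT and 5.95 ± 0.0612% in CD4 KO. Ets1 was 39.1 ± 2.19%, 47.2 ± 0.461%, 58.5 ± 1.24% and 50.0 ± 1.18% in the same order. By level per length Ets2 came after Ets1 in DP WT, after Ets1 and Elf1 in DP KO and CD4 WT, and after Elf4 too in CD4 KO, where the libraries of Ets2 and Elf4 overlapped. Libraries also overlapped between Fli1 and Elf4 in DP KO and between Gabpa and Elk3 in both CD4 groups.

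**Figure D1:**
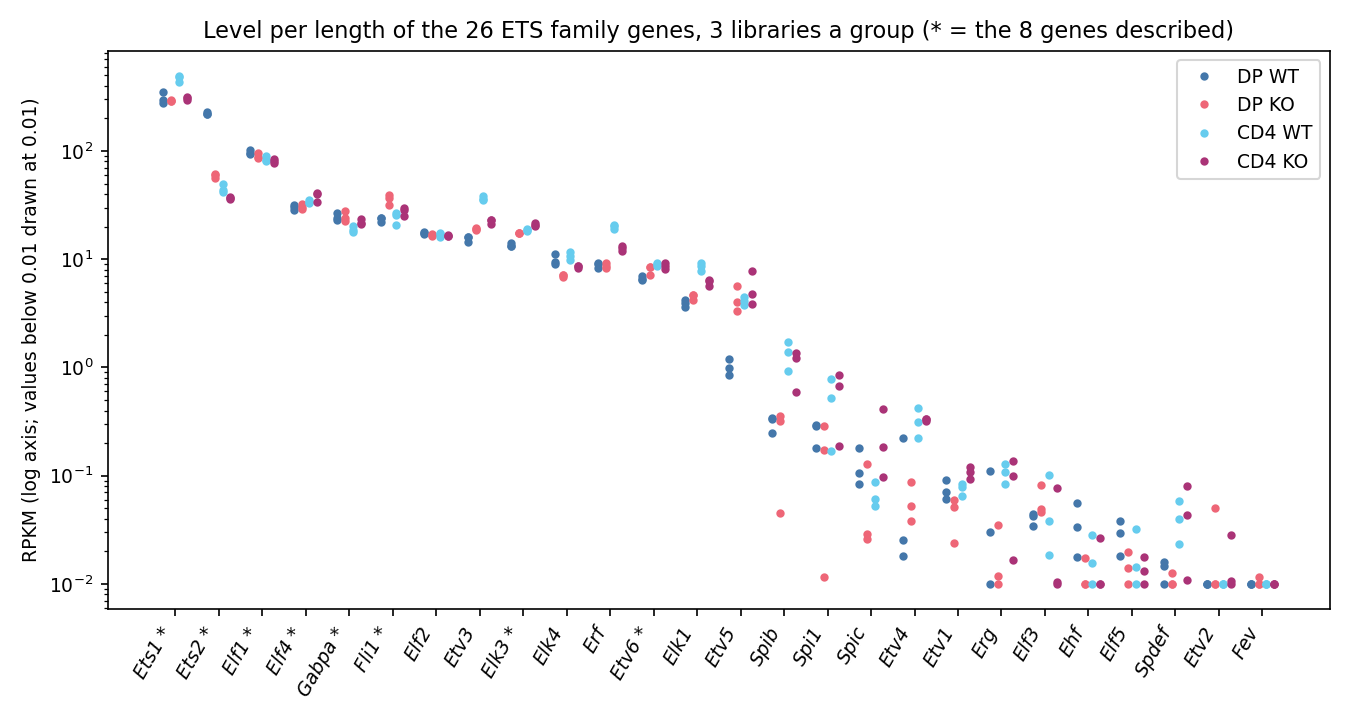
Level per length (RPKM, log axis) of 26 ETS family genes in the 12 libraries, 1 point a library, coloured by group; asterisks mark the 8 genes described. Ets1 is the highest in every group, and Ets2 is near 223.0 RPKM in DP WT and between 36.74 and 58.87 on average in the other 3 groups.

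In DP thymocytes the question was which of these genes respond to the induced loss of Satb1. Ets2 fell to 0.264 times its WT level, Fli1, Elk3 and Etv6 rose by smaller amounts, and Ets1, Elf1, Elf4 and Gabpa did not pass the test. Of the 8 genes 3 were called higher and 1 lower at an edgeR adjusted p under 0.05, against 16.8% of all 16776 tested genes called higher and 14.1% called lower. In these bulk samples, fewer cells of a type and less RNA per cell cannot be told apart.

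Ets2, a close relative of Ets1 and a factor phosphorylated by the ERK pathway, was at 779, 779 and 822 CPM in the 3 DP WT libraries and at 212, 216 and 200.3 CPM in DP KO. The groups were far apart, with no KO library above 216.1 CPM and no WT library below 778.5 CPM. Its log2 fold change was -1.91 ± 0.07 (adjusted p = 1.85e-08), and 5.92% of tested genes had a larger absolute change. Under the 15 alternatives its log2 fold change stayed between -1.97 and -1.86 and its call was kept. The DP marker sum given above also was lower in DP KO, with 5 of 5 markers called lower; its part in the fall of Ets2 was not tested.

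Fli1, an ETS factor of blood stem cells, megakaryocytes and lymphocytes, was at 101, 101 and 92.98 CPM in DP WT and at 154, 163.5 and 132.5 CPM in DP KO. Every KO library was above every WT library. The log2 fold change was 0.62 ± 0.09 (adjusted p = 0.000309) and the call was kept under all 15 alternatives. The listed erythroid and megakaryocyte markers, 4 of 6 tested, gave 0 higher and 1 lower, with sums of 16.5 to 109 CPM in DP WT and 39.6 to 184 CPM in DP KO. Of 5 listed endothelial markers 3 could be tested and 2 rose in DP KO with Fli1, Pecam1 (0.32 ± 0.07, adjusted p = 0.00457) and Kdr (3.21 ± 0.33, adjusted p = 3.74e-05). Cdh5 did not pass (-0.28 ± 0.57, adjusted p = 0.757), and Tek, not tested, averaged 0.237 CPM in DP WT and 0.0722 CPM in DP KO. The endothelial list summed to 140.6 to 147 CPM in DP WT and 171 to 191.6 CPM in DP KO. Pecam1, which T cells also express, made up 139.8 to 145.9 and 167.4 to 188.6 CPM of that, Kdr was at 2.59 to 3.95 CPM in DP KO, and Emcn was at 0 in every DP KO library. The part of either list in the rise of Fli1 was not tested.

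Elk3, a ternary complex factor that binds DNA with serum response factor and represses until ERK phosphorylates it, was at 66.6, 62.2 and 61.7 CPM in DP WT and at 82.3, 81.3 and 82.0 CPM in DP KO. The KO libraries were close to one another and above all WT libraries. Its log2 fold change was 0.38 ± 0.07 (adjusted p = 0.00191), and with DP WT replicate 3 as the lone DP WT library it was 0.41 (adjusted p = 0.0524). Etv6, a repressor needed by blood stem cells, was at 37.6, 40.8 and 38.3 CPM in DP WT and at 49.1, 49.7 and 41.8 CPM in DP KO. The groups did not overlap, but DP KO replicate 3 was close to the highest WT library. Its log2 fold change of 0.28 ± 0.09 (adjusted p = 0.0393) lost its call when any library except DP KO replicate 3 was left out (adjusted p = 0.081 to 0.129), with DESeq2 size factors (0.0509), and with DP WT replicate 3 as the lone DP WT library (0.237).

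Ets1, which many T cell genes need for full expression, was at 1486, 1582 and 1878 CPM in DP WT and at 1549, 1552 and 1589 CPM in DP KO. The KO libraries lay inside the WT range, which was wide because of DP WT replicate 3, the library with the lowest total count. The log2 fold change was -0.07 ± 0.09 (adjusted p = 0.626). Elf1, an ELF factor that binds cytokine receptor genes, had 432 to 476 CPM in DP WT and 396 to 445 in DP KO (-0.10 ± 0.07, adjusted p = 0.327). Elf4, an ELF factor that restrains the division of mature T cells, had 186 to 207 and 191 to 213 CPM (0.04 ± 0.07, adjusted p = 0.755). Gabpa, the DNA-binding subunit of GABP, had 119 to 140 and 116 to 145 CPM (0.02 ± 0.09, adjusted p = 0.907). In each of these 4 genes the WT and KO libraries overlapped. DP WT and DP KO libraries did not overlap in 4 of the 8 genes, and in 45.1% of the 16493 genes with a mean count of at least 10.

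**Figure D2:**
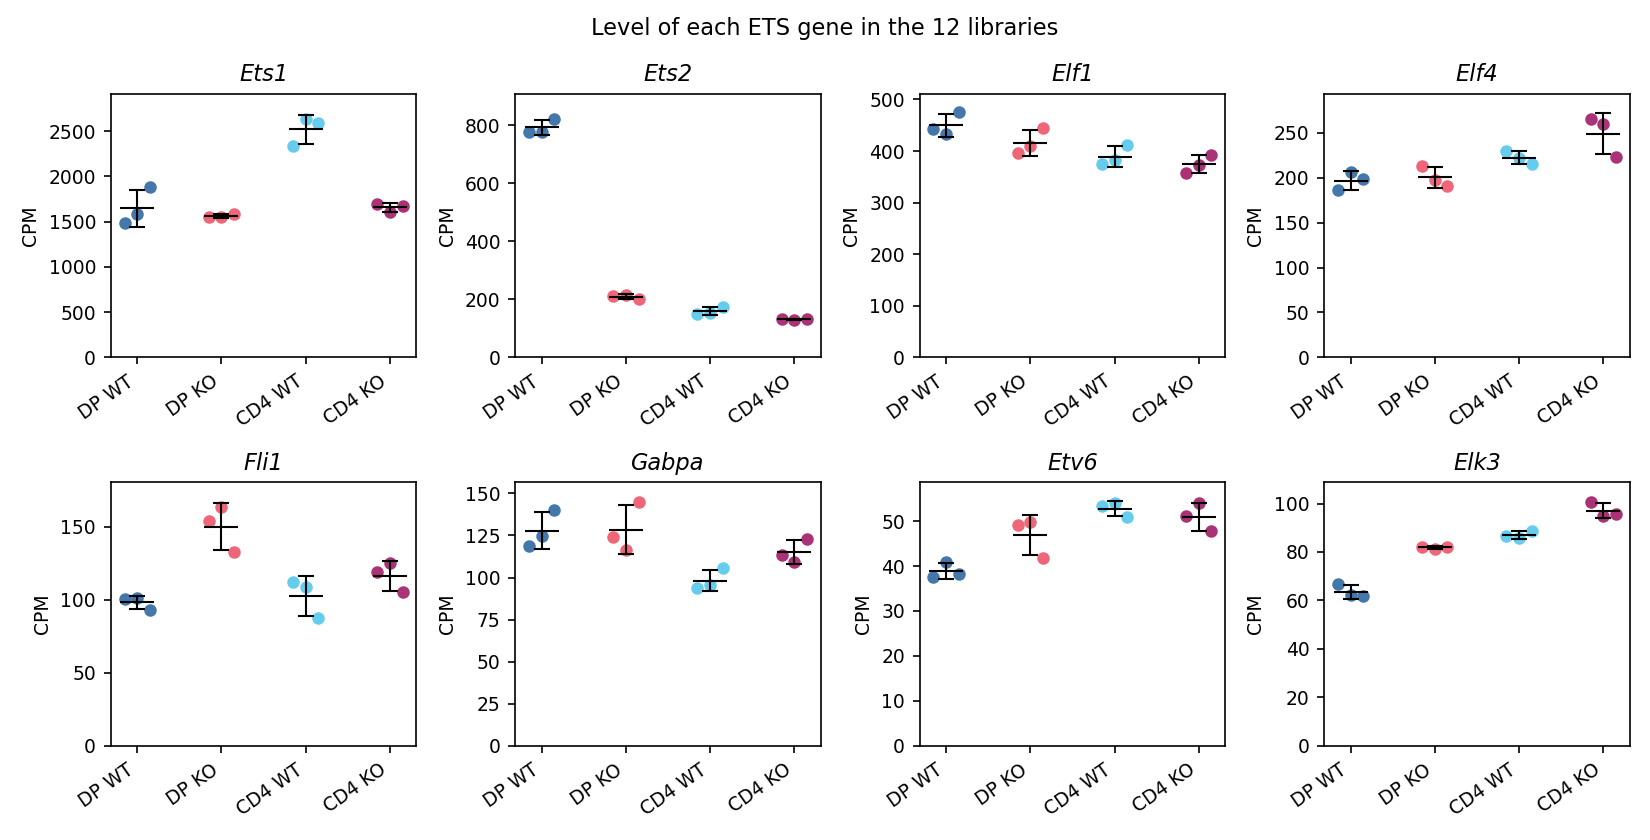
CPM of each of the 8 ETS genes in the 12 libraries, 1 panel a gene with its own axis from 0; points are libraries, the bar is the group mean and the whiskers 1 SD (n = 3). Ets2 is high in DP WT alone (779 to 822 CPM), and Ets1 is high in CD4 WT (2334 to 2637 CPM).

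The second comparison asked the same of CD4 thymocytes. Here Ets1 fell to 0.658 times and Ets2 to 0.822 times the WT level, and Gabpa rose to 1.17 times, while Fli1, Etv6 and Elk3, the genes that rose in DP cells, did not pass the test. CD4 WT and CD4 KO libraries did not overlap in 4 of the 8 genes, and in 52.0% of the 17194 genes with a mean count of at least 10. Of the 8 genes 1 was called higher and 2 lower, against 20.9% of 17316 tested genes called higher and 18.8% called lower. With the replicate number as a block, 4 were called higher, and all genes called higher went from 3620 to 4061.

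Ets1 was at 2334, 2637 and 2590 CPM in CD4 WT and at 1699, 1601 and 1672 CPM in CD4 KO. Every KO library was below every WT library, and the KO values were close to those of both DP groups. The log2 fold change was -0.60 ± 0.07 (adjusted p = 0.000135), and under 14 alternatives it ran from -0.66 to -0.57 with the call kept. Ets2 was at 148, 154 and 174 CPM in CD4 WT and at 133, 128 and 130.4 CPM in CD4 KO, again without overlap. Its log2 fold change was -0.28 ± 0.07 (adjusted p = 0.0112), and the call was kept under the 14 alternatives, with an adjusted p of up to 0.0492. Of the CD4 stage markers 4 of 4 were called lower in CD4 KO and of the DP markers 4 of 5 higher, with the sums given above and none at 0; their part in the falls of Ets1 and Ets2 was not tested.

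Gabpa was at 93.5, 95.7 and 105 CPM in CD4 WT and at 113, 109 and 123 CPM in CD4 KO, with all KO libraries above all WT ones. The log2 fold change of 0.23 ± 0.07 (adjusted p = 0.0273) lost its call without CD4 WT replicate 1 (0.106), CD4 WT replicate 2 (0.099) or CD4 KO replicate 3 (0.0565), and in 1 model over all 12 libraries (0.0519). Without CD4 KO replicate 1 it passed only just, with an adjusted p that rounds to 0.05. Its antisense neighbour Atp5j had 66.2 to 71.3 CPM in CD4 WT and 71.3 to 79.6 in CD4 KO, with a log2 fold change of 0.14 ± 0.07 that did not pass (adjusted p = 0.136); its part in the Gabpa count was not tested.

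Elk3 was at 86.7, 85.6 and 88.8 CPM in CD4 WT and at 101, 94.7 and 95.8 CPM in CD4 KO. The groups did not overlap, but the log2 fold change of 0.16 ± 0.06 missed the threshold (adjusted p = 0.0536), passing it in 1 model over all 12 libraries (0.0388) and with the replicate block (0.0367). Fli1 (112, 109 and 87.1 against 119, 125 and 105 CPM) had a log2 value of 0.18 ± 0.10 (adjusted p = 0.193) and passed with the block (0.19, adjusted p = 0.0218). Elf4 (230.1, 222 and 216 against 265.5, 259.7 and 223 CPM) had a log2 value of 0.17 ± 0.08 (adjusted p = 0.116) and passed with the block (0.16, adjusted p = 0.0374) and without CD4 KO replicate 3 (0.25, adjusted p = 0.0108). In both genes replicate 3 was the lowest library of each CD4 group. Elf1 (-0.06 ± 0.07, adjusted p = 0.572) and Etv6 (-0.05 ± 0.07, adjusted p = 0.639) had overlapping groups.

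The difference between these knockout effects was itself tested over all 12 libraries, as the KO effect in CD4 minus the KO effect in DP. One gene was called higher and 3 lower, against 14.3% and 13.3% of 18431 tested genes. For Ets2 the difference was 1.64 ± 0.10 (adjusted p = 2.84e-08), its fall being larger in DP than in CD4. For Ets1 it was -0.53 ± 0.12 (adjusted p = 0.00326), the knockout effect being near 0 in DP and negative in CD4; with DP WT replicate 3 as the lone DP WT library it was -0.33 (adjusted p = 0.08). For Fli1 it was -0.43 ± 0.14 (adjusted p = 0.0339) and for Etv6 -0.32 ± 0.11 (adjusted p = 0.0471).

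The Fli1 call was lost without DP WT replicate 3, DP KO replicates 1 or 2, CD4 WT replicates 1 or 2, or CD4 KO replicate 3 (adjusted p = 0.059 to 0.0943), and the Etv6 call was lost without 8 of the 12 libraries in turn, that is any except DP WT replicate 2, DP KO replicate 3, CD4 WT replicate 3 and CD4 KO replicate 2 (0.0572 to 0.0955). With DP WT replicate 3 as the lone DP WT library neither passed (0.089 for Fli1, 0.137 for Etv6). The differences of Elk3 (-0.21 ± 0.08, adjusted p = 0.0639), Gabpa (0.22 ± 0.12, 0.211), Elf4 (0.14 ± 0.11, 0.371) and Elf1 (0.06 ± 0.10, 0.726) did not pass. With the block, Elk3 (adjusted p = 0.0382) and Gabpa (0.0332) passed, and 2 of the 8 were then called higher, while all genes called higher went from 2634 to 3110. Elk3 also passed with the DESeq2 Wald test (0.0409) and without DP WT replicate 1, DP KO replicate 3 or CD4 KO replicate 1 (0.0282 to 0.0461).

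**Figure D3:**
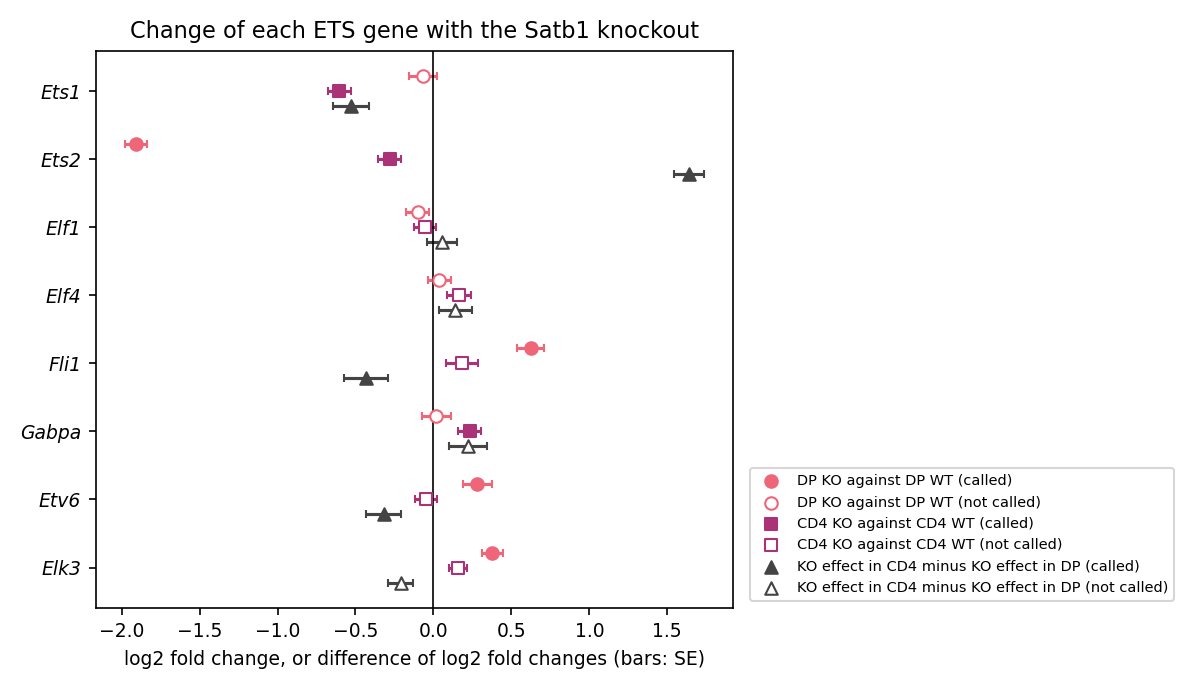
Knockout effect on each ETS gene in DP cells (circles) and CD4 cells (squares) and their difference (triangles), as log2 fold changes with SE bars (3 libraries a group); filled symbols passed an adjusted p under 0.05. Ets2 at -1.91 lies farthest from 0 in DP and Ets1 at -0.60 in CD4, each within its own stage.

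The third comparison asked how the genes differ between the stages in WT thymocytes. From DP to CD4 cells, Ets2 was at 0.2 times its DP level, Ets1, Elk3 and Etv6 were higher, and Gabpa was lower. Of the 8 genes 4 were called higher in CD4 WT and 3 lower, against 28% and 27.1% of 17369 tested genes, so most members differed, as did most genes. Libraries did not overlap in 7 of the 8 genes, and in 63.2% of the 16916 genes with a mean count of at least 10.

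Ets2 had the largest log2 difference of the 8, -2.32 ± 0.08 (adjusted p = 5.43e-10), from 793.2 ± 25.1 to 158.8 ± 13.9 CPM (SD, n = 3). Ets1 was 1.53 times as high in CD4 WT (log2 0.61 ± 0.09, adjusted p = 0.000166), with its lowest CD4 WT library (2334 CPM) above its highest DP WT library (1878 CPM). Elk3 (0.45 ± 0.07, adjusted p = 0.000108) and Etv6 (0.44 ± 0.08, adjusted p = 0.000389) were higher by similar amounts. Gabpa was lower (-0.38 ± 0.08, adjusted p = 0.0014). These 5 calls were kept under all 15 alternatives.

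Elf1 was called lower (-0.21 ± 0.07, adjusted p = 0.0203), and lost the call without DP WT replicate 3 (0.0631), CD4 WT replicate 1 (0.103) or CD4 WT replicate 2 (0.0872), and with no low-count filter (0.159). Elf4 was called higher (0.17 ± 0.07, adjusted p = 0.0426), and lost the call without DP WT replicate 1 (0.157), CD4 WT replicate 1 (0.119) or CD4 WT replicate 2 (0.0841), in 1 model over all libraries (0.06) and with DP WT replicate 3 as the lone DP WT library (0.182). Fli1 did not pass (0.06 ± 0.09, adjusted p = 0.604), except without CD4 WT replicate 3 (0.18, adjusted p = 0.0463).

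The fourth comparison set CD4 KO against DP KO. Ets2 was still lower in CD4 cells, by a smaller factor, and Ets1, which differed between the stages in WT, did not pass the test. DP KO and CD4 KO libraries did not overlap in 6 of the 8 genes, and in 40.2% of the 16901 genes with a mean count of at least 10. Of the 8 genes 2 were called higher and 2 lower, against 13.9% and 7.9% of 16910 tested genes. With the block 4 were called lower, as Elf1 (-0.13, adjusted p = 0.0249) and Gabpa (-0.13, adjusted p = 0.032) passed, and so did Etv6 as higher (0.14, adjusted p = 0.0469); all genes called lower then numbered 3139 in place of 1336.

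Ets2 had a log2 fold change of -0.66 ± 0.06 (adjusted p = 0.000143), with 200.3 to 216.1 CPM in DP KO and 128.1 to 133.3 in CD4 KO, and the call was kept under the 14 alternatives. Ets1 was at 1549 to 1589 CPM in DP KO and 1601 to 1699 CPM in CD4 KO; the groups did not overlap, but the log2 fold change was 0.10 ± 0.06 (adjusted p = 0.305). Elf4 was called higher in CD4 KO (0.33 ± 0.08, adjusted p = 0.0202), and Elk3 too (0.26 ± 0.06, adjusted p = 0.0127). Fli1 was called lower (-0.35 ± 0.09, adjusted p = 0.0276), with 132.5 to 163.5 CPM in DP KO and 105.2 to 125 CPM in CD4 KO.

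The Elf4 call was lost without DP KO replicates 2 or 3 or CD4 KO replicates 1 or 2 (adjusted p = 0.0501 to 0.11), the Elk3 call without DP KO replicate 1 (0.0568) or CD4 KO replicate 1 (0.0749), and the Fli1 call without any library except DP KO replicate 3 (0.051 to 0.0914). Without the block, Elf1 (-0.13 ± 0.07, adjusted p = 0.24), Gabpa (-0.14 ± 0.09, adjusted p = 0.348) and Etv6 (0.14 ± 0.09, adjusted p = 0.296) did not pass.

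**Figure D4:**
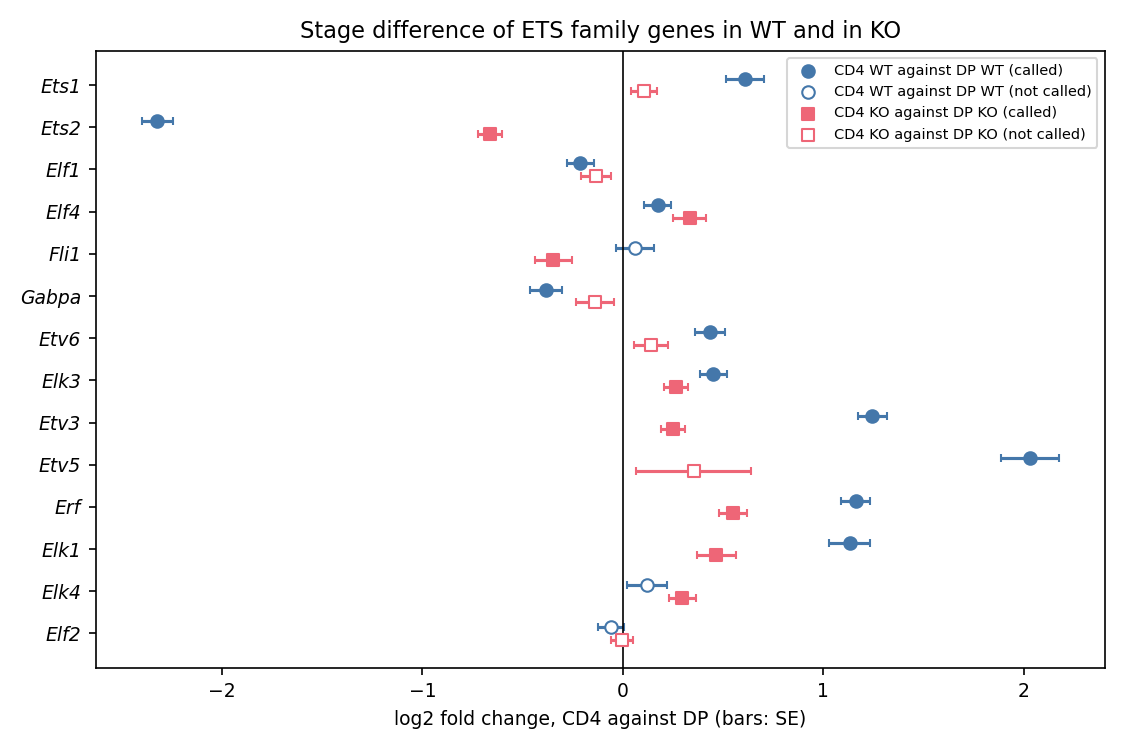
Stage difference of the 8 ETS genes and 6 further ETS family genes, as log2 fold changes of CD4 against DP with SE bars (3 libraries a group), in WT (circles) and in KO (squares); filled symbols passed an adjusted p under 0.05. Ets2 moves from -2.32 in WT to -0.66 in KO and Ets1 from 0.61 to 0.10, while Etv3 moves from 1.25 to 0.25.

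The 18 other genes of the ETS family were mostly low. The highest per length were Elf2, Etv3, Elk4, Erf, Elk1 and Etv5, and the others stayed at or below the 6.14 CPM of Spib, a factor of B cells and plasmacytoid dendritic cells. In DP KO, 9 of the 18 could be tested and 2 were higher and 1 lower, against 16.8% and 14.1% of all genes. Etv3, a repressor, was at 78.4 to 87.5 CPM in DP WT and 101.9 to 107 in DP KO, and rose (0.32 ± 0.07, adjusted p = 0.0057). Etv5, which ERK signals induce in many tissues, was at 4.20 to 5.85 and 16.3 to 27.8 CPM, and rose (2.11 ± 0.21, adjusted p = 4.07e-05). Elk4, a ternary complex factor like Elk3, fell (-0.47 ± 0.10, adjusted p = 0.00329). In CD4 KO none of the 11 tested was higher and 4 fell, against 20.9% and 18.8% of all genes. Those that fell were Etv3 (-0.71 ± 0.07, adjusted p = 2e-05), Erf (-0.65 ± 0.07, 3.38e-05), Elk1 (-0.48 ± 0.10, 0.0029) and Elk4 (-0.33 ± 0.08, 0.00683). Erf is a repressor that ERK inactivates, and Elk1 is another ternary complex factor.

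In WT cells 5 of 11 tested family genes were higher at the CD4 stage and none lower, against 28% and 27.1% of all genes. The 5 were Etv3 (1.25 ± 0.07, adjusted p = 3.12e-08), Erf (1.16 ± 0.07, 7.44e-08), Etv5 (2.03 ± 0.15, 2.32e-07), Elk1 (1.13 ± 0.10, 1.87e-06) and Spib (2.15 ± 0.27, 3.29e-05). In CD4 KO against DP KO 7 of 10 were higher and none lower, against 13.9% and 7.9% of all genes. They were Etv3, Erf, Elk1, Elk4, Etv1, Etv4 and Spib. Of these, Etv1, Etv4 and Spib were near the floor, averaging 0.592, 0.145 and 0.855 CPM in DP KO and 1.41, 0.807 and 3.77 CPM in CD4 KO. The knockout effect differed between the stages for 4 of 12, all lower in CD4, against 13.3% of all genes lower and 14.3% higher: Etv5 (-1.70 ± 0.36, adjusted p = 0.00476), Etv3 (-1.02 ± 0.09, 1.5e-06), Elk1 (-0.69 ± 0.14, 0.00162) and Erf (-0.64 ± 0.10, 0.000218). The sign of this difference was the same as for Ets1, Fli1 and Etv6 and the opposite of that for Ets2.

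Of 13 genes for partners and regulators of ETS factors, 1 rose and 2 fell in DP KO, where 16.8% of all genes rose and 14.1% fell, and 2 rose and 7 fell in CD4 KO, where 20.9% rose and 18.8% fell. Their median log2 fold change was -0.01 in DP and -0.16 in CD4, beside medians over all tested genes of 0.01 and 0.00. Srf, the partner of the ternary complex factors, was at 148.4 to 152.4 CPM in CD4 WT and 110.9 to 115 CPM in CD4 KO, and fell (-0.41 ± 0.06, adjusted p = 0.000222). Its coactivators Mrtfa (-0.42 ± 0.08, adjusted p = 0.00135) and Mrtfb (-0.22 ± 0.06, 0.0197) fell as well, and for all 3 the knockout effect differed from that in DP (adjusted p = 0.000374, 0.00153 and 0.0438). Runx1, whose protein binds DNA next to ETS1, rose in DP KO (0.37 ± 0.07, adjusted p = 0.0031), and Runx3 fell in DP KO (-0.82 ± 0.26, 0.0434) and in CD4 KO (-0.48 ± 0.14, 0.0221). Gabpb2, which encodes a partner of GABPA, rose in CD4 KO (0.29 ± 0.07, adjusted p = 0.0061), while Mapk3, a kinase gene of the ERK pathway, fell (-0.42 ± 0.07, 0.00114).

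Of 13 genes known to be bound or controlled by ETS factors in T cells, 12 could be tested, and Trac was listed at 0 in all libraries. The T cell marker Cd3e averaged 304.1 to 430.7 CPM in the same groups. Why Trac was at 0 was not tested, and its 0 is not read as a lack of the transcript. In DP KO 3 rose and 4 fell, and in CD4 KO 2 rose and 3 fell, beside the same shares of all genes; the CD4 counts are near those shares. Il7r, the interleukin-7 receptor gene that GABP controls, was at 7.29 to 10.4 CPM in DP WT and 123.3 to 169.9 CPM in DP KO (4.16 ± 0.18, adjusted p = 7.32e-07), and its level in CD4 cells did not pass the test (0.02 ± 0.08, adjusted p = 0.879). Cd247, the zeta chain gene that ELF1 binds, fell at both stages (-0.63 ± 0.07, adjusted p = 5.45e-05, and -0.75 ± 0.06, adjusted p = 1.03e-05). Cd4 also fell at both (-0.51 ± 0.07, adjusted p = 0.000189, and -0.76 ± 0.09, adjusted p = 8.45e-05). Klf4, which ELF4 controls in mature T cells, did not pass at either stage (adjusted p = 0.833 and 0.436), and its libraries were spread widely, from 7.76 to 43.3 CPM in DP KO.

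Among 9821 genes averaging 2 or more on the log2 CPM scale, the genes whose centred log2 CPM followed each ETS gene most closely over the 12 libraries were found by the root mean square difference. For Ets2, whose own SD over the libraries was 1.06, the nearest were Bcl6 (0.161), Ptprf (0.206) and Slc37a2 (0.224). For Ets1, with an SD of 0.302, they were Uhmk1 (0.0467), Cflar (0.0602) and Pofut1 (0.0652). Cggbp1 (0.0461) was among the nearest to Gabpa. Elf1 was followed by Tbcd, Rab14 and Rnf10, and Elf4 by Jade2, Hmbox1 and Tgfbrap1. Fli1 was followed by Fastk, Lamtor2 and Actr8, Etv6 by Snd1, Mogs and Gmppa, and Elk3 by Pgam1, Mfge8 and Riok2. The 8 genes themselves and symbols of predicted genes were left out of this search, so none of them could be named. The libraries share batches and groups, so the likeness is a description of these samples.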

How the data were processed

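Poly(A) RNA of sorted thymocytes was sequenced as paired reads, per the labels' protocols. The deposited files are 2 tables of raw gene counts, 1 per stage with 6 libraries each, and the submitters' processing notes name mm10, Subread 1.0.1, DESeq2 and R 4.1.5. The sources used here give no aligner, strand setting or rule for multiply matching reads. Libraries were placed in groups by their titles.

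Counts were tested with edgeR 4.0.16 in R 4.3.3 by the quasi-likelihood test, with TMM normalization, the default low-count filter, robust empirical Bayes and Benjamini-Hochberg adjustment over all tested genes, and genes with an adjusted p under 0.05 were called. Robust estimation was adopted after a first fit without it, because its counts of called genes matched earlier results of these data; the fit without it is an alternative. For SE, the absolute log2 fold change was divided by sqrt(F). CPM used TMM over all 12 libraries, and RPKM divided them by exon length, taken for Ets2, Erg, Ehf and Spdef from the main chromosomes alone. The tests were checked on simulated counts with independent libraries and changes larger than most of those reported here. That check does not cover small changes or effects shared by libraries of the same number.

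The labels' batch number equals the replicate number, but the labels do not say that equal numbers are pairs. Deviations from the group means correlated between same-numbered libraries at -0.0282, -0.0424 and 0.213 (DP WT with DP KO), 0.139, 0.279 and 0.442 (CD4 WT with CD4 KO), 0.308, 0.268 and 0.312 (DP WT with CD4 WT) and 0.402, 0.598 and 0.684 (DP KO with CD4 KO). Between different-numbered libraries, in the same order, they ran from -0.176 to 0.26, -0.375 to 0.271, -0.3 to 0.0889 and -0.655 to 0.369. In DP WT with DP KO, some different-numbered libraries were thus more alike than same-numbered ones. The members and gene lists were chosen with earlier results of these data known; named are all 8 genes, members of the 3 lists, and the 3 genes most alike to each. Some genes this rule gives are not reported here. Atp5j and Satb1 were added later for the checks beside which they stand. Alternatives were DESeq2 1.42.0 size factors and Wald test, limma-voom (limma 3.58.1), 2 other low-count filters (none, or a mean of 10 counts), a joint model of all 12 libraries, the replicate block, each library left out in turn, DP WT replicate 3 as the lone DP WT library, and non-robust estimation.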

Additional observations from a re-analysis of the deposited data

Results flagged for a closer look

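The knockout effect differed between the stages by a test of the difference over all 12 libraries for 4 of the 8 genes. This difference is given as the log2 effect in CD4 minus that in DP. Of these genes 1 was called higher and 3 lower, against 14.3% and 13.3% of 18431 tested genes. The difference was 1.64 for Ets2 (edgeR adjusted p = 2.84e-08), -0.53 for Ets1 (0.00326), -0.43 for Fli1 (0.0339) and -0.32 for Etv6 (0.0471). Of the 20 alternatives, the call was kept under 20 for Ets2, 19 for Ets1, 13 for Fli1 and 11 for Etv6.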

How the results depend on the processing

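Of 40 log2 values (8 genes in 5 comparisons), 22 were called, and 11 of these kept their call under every alternative run, while 9 of the 18 others stayed uncalled throughout. Calls that moved are given with the results. The replicate block brought the genes called higher to 4 in CD4 KO against CD4 WT (4061 over all genes), those called lower in CD4 KO against DP KO to 4 (3139 over all genes), and those called higher for the difference between stages to 2 (3110 over all genes); it changed no call of the 8 genes other than those given with the results. With DP WT replicate 3 as the lone DP WT library, assumed to vary like the other groups, 1 gene was called higher in DP KO (1159 higher and 877 lower over all genes), and 0 were called lower for the difference (1752 higher and 1618 lower over all genes, by edgeR). Signs of uncalled values near 0 turned: Gabpa in DP KO was -0.0015 with DESeq2 size factors, -0.0014 with its Wald test and -0.12 with the lone library. Leaving out each library in turn gave DP KO log2 values of -0.14 to 0.032 for Ets1, -0.013 to 0.091 for Elf4 and -0.056 to 0.099 for Gabpa, CD4 KO values of -0.080 to 0.0037 for Etv6, and differences of -0.013 to 0.073 for Elf1. It gave 0 to 1 genes called higher in CD4 KO, 0 to 2 higher and 1 to 2 lower in CD4 KO against DP KO (653 to 1549 lower over all genes), and 1 to 4 lower for the difference. The cause of these changes was not tested. Non-robust estimation was the setting of the first fit, and robust estimation was adopted after that fit had been seen. Kept as an added alternative, the non-robust fit changed no call of the 8 genes. The lowest count of any of the 8 genes in a library was 858, for Etv6.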

Other observations

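Fos, an immediate early gene that ternary complex factors such as ELK3 control together with SRF, was highest in replicate 3 of every group. It was at 90.5, 65.1 and 180.2 CPM in DP WT, 71.1, 121.4 and 390.7 in DP KO, 217.1, 109.5 and 396.3 in CD4 WT and 265.1, 245.2 and 532.5 in CD4 KO, and its knockout effect did not pass in either stage (edgeR adjusted p = 0.543 and 0.556). Klf2, a maturation factor on the list of genes controlled by ETS factors, was also highest in replicate 3 of every group, with 92.4 CPM in DP KO replicate 3 against 23.3 and 32.4 CPM in replicates 1 and 2. In Fli1, by contrast, replicate 3 was the lowest library of all 4 groups, at 92.98, 132.5, 87.1 and 105.2 CPM. Replicate 3 also had the lowest total count in each group: 22790504 in DP WT, 44304075 in DP KO, 30915820 in CD4 WT and 42444073 in CD4 KO. Its libraries carry the same batch number in the labels. The replicate 3 pattern was noticed in the data and was not tested, nor was the part of depth or batch in it.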
